A study of Mus musculus with 8 samples.

Results

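Chromosome 15 carried 3136 Rad21 regions, of 64772 regions on all chromosomes, in 8 ChIP-seq libraries of the mouse B lymphoma line CH12F3. The regions were chosen by position. All peaks of the 8 deposited lists on chromosome 15 were taken, apart from those of the Myc and Pvt1 domain and of the Hoxc cluster, and peaks that overlapped by at least 1 bp were merged. Left out in this way were 653 peaks, or 290 regions, between positions 61107646 and 63573788 and between 102790054 and 102898652. All coordinates are of the mm9 build. The chromosome was picked because its share of peaks was known to be low in 1 library, replicate 1 of PS_Ia. The standing of that library is therefore described here, and no test of it is reported.

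Each of the 4 genotypes had 2 libraries, and all the lines were AID-/-, which lack the deaminase that starts class switch recombination. PS_Ia lines were made in aInv cells by a deletion from Sg3 to Sa that left part of both switch regions. PS_Ca lines also carry a deletion from Sg3 to Sa that left part of both, made in cells deleted from VH to the 3'BCEs (the labels' spelling) on the non-coding IgH. FS_Ia lines are aInv cells with Cg3-Ca deleted and full-length Sg3 and Sa, and FS_Ca lines are non-coding IgH deletion cells with Cg3-Ia deleted and full-length Sg3 and Sa. All cells had 3 days of stimulation with anti-CD40, IL4 and TGF-β, and chromatin was precipitated with an anti-Rad21 antibody. The study addresses what role chromatin configuration plays in orientation-specific joining at IgH. The edited locus is on another chromosome. Whether replicates are separate cultures or clones is not in the labels, so p-values measure only how far these libraries scatter, which may be technical. The lists hold no expression, so the cell type was not checked against markers.

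Rad21 is the kleisin subunit that closes the cohesin ring. Cohesin extrudes chromatin into loops and is halted at sites bound by CTCF, and also gathers at active promoters and enhancers, so Rad21 peaks mark loop anchors and regulatory DNA. Mouse chromosome 15 is acrocentric, with the centromere at the low end of its coordinates. Its distal end is gene-rich and carries the type II keratin genes and the Hoxc cluster. Gain of chromosome 15, which carries the Myc oncogene, is a well-known karyotype change of mouse lymphomas. Neither karyotype nor copy number was measured in these libraries.

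Over the whole genome the shortest list, PS_Ca replicate 2, had 11288 peaks and the longest, PS_Ia replicate 2, had 47461. The expected background, which moves with depth and is the only sign of it in the lists, ran from 0.223 fragments per position (FS_Ia replicate 2) to 0.862 fragments (PS_Ia replicate 2). PS_Ia replicate 1 lay inside both ranges, with 20582 peaks and a background of 0.622 fragments. Calls began at summits of 3 to 5 fragments, so a region that a list lacks may still have bound Rad21 at a lower level. Summits varied in position between the lists without a shift of 1 list as a whole. Over the 96 regions with a single peak in every list, the median summit offset of a library from the other 7 lay between -17.5 and 17 bp. The median absolute offset was 44.5 to 69.5 bp, and the summits of 1 region spanned a median of 260 bp over the 8 lists, with 3 regions at 100 bp or less.

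Rad21 regions crowded the distal end of the chromosome and were almost missing from windows 4, 5 and 10 of its 21 windows of 5 Mb. The densest window was the last, window 21, from position 100000001 to the last peak at 103383736, with 488 regions, or 153 regions per Mb. Windows 16 (75000001 to 80000000, 387 regions), 20 (95000001 to 100000000, 376 regions) and 17 (80000001 to 85000000, 350 regions) came next. At the other extreme, window 10 (45000001 to 50000000) held 5 regions, window 4 (15000001 to 20000000) held 6 and window 5 (20000001 to 25000000) held 7. On the other 18 autosomes a window held a median of 93 regions, with quartiles of 46.2 and 174 over 466 windows, so chromosome 15 held windows from both ends of that range. Window 21 had more regions than 99.4% of those windows, although it is shorter and lost part of its length to the Hoxc stretch, and window 10 had more than 3.65% of them.

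**Figure D1:**
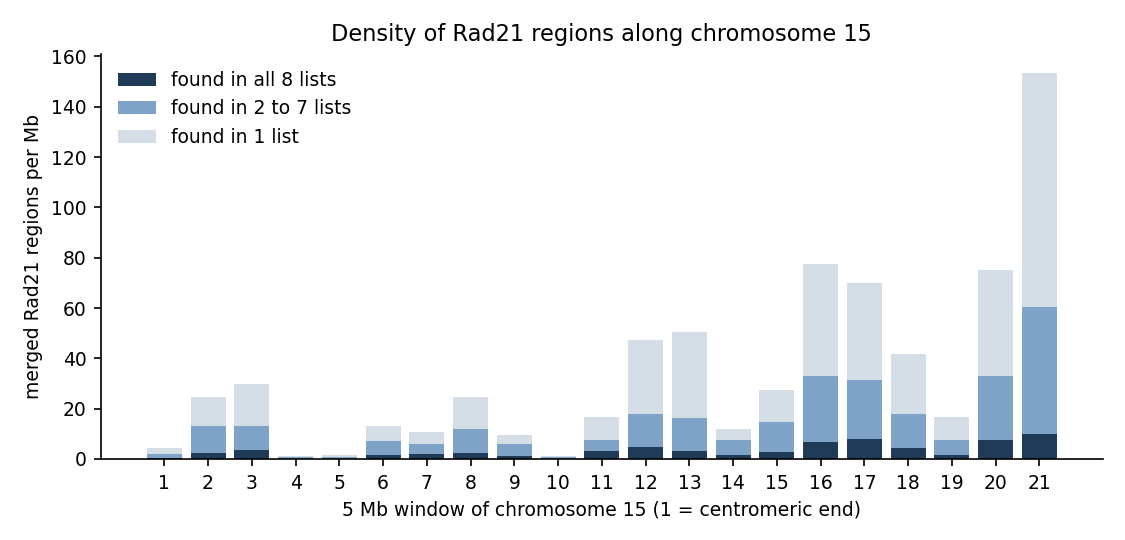
Merged Rad21 regions per Mb in each 5 Mb window of chromosome 15, numbered from the centromeric end, with the 2 stretches left out taken off the length. Bars are stacked by the number of lists that held the region; window 21 reaches 153 regions per Mb, and windows 4, 5 and 10 hold 5 to 7 regions each.

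Regions common to all libraries followed the same course. A peak in all 8 lists was found at 304 regions (9.69%), against 6377 regions (10.7%) on the other autosomes. Window 17 held the most of these, 39 regions, followed by window 20 with 37, window 16 with 34 and window 21 with 31. Per Mb, window 21 was the densest, with 9.74 shared regions. Windows 4, 5 and 10 held none, and the stretch from 12726672 to 25646043, 12.9 Mb long, had 37 regions but none shared by all. With such empty stretches counted, neighbouring shared regions lay a median of 110 kb apart (quartiles 35.7 and 265 kb), against 128 kb on the other autosomes. Only gaps across the stretches left out were dropped. Between 31 pairs of neighbours, of 301 pairs, the gap was under 10 kb.

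Most regions were seen once. A single list held 1750 regions (55.8%), of which the longest list, PS_Ia replicate 2, supplied 884 and the shortest, PS_Ca replicate 2, supplied 7. Strength went with the number of lists: the median percentile rank of a region's fold within its lists, where 0 is the strongest, was 75.5 for regions of 1 list and 21.4 for regions of all 8. The median width was 297 bp for regions of 1 list and 2186.5 bp for regions of all 8. The same ranks on the other autosomes were 75.5 and 22.6. By number of lists and by rank, chromosome 15 regions thus lay close to those of the other autosomes, a description that was not tested.

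The tallest region of the chromosome stood far above the rest. At 74915858 to 74917581, in window 15, its fold enrichment was 79.5 and 76.8 in PS_Ia, 90.9 and 58.6 in PS_Ca, 61.9 and 85.04 in FS_Ia, and 66.0 and 74.5 in FS_Ca (replicates 1 and 2 of each). The fold is the authors' value, the summit height over the expected background of the same list, so it can be set only against other peaks of that list. Summits there were 79 to 160 fragments high. To make lists comparable, each fold was divided by the median fold of that list's shared regions on the other 18 autosomes. On this relative scale the tallest region reached 7.59 and 6.50 in PS_Ia, 7.32 and 7.75 in PS_Ca, 6.67 and 7.43 in FS_Ia, and 7.08 and 6.79 in FS_Ca. PS_Ca replicate 2 was the highest and PS_Ia replicate 1 the second highest of the 8, while PS_Ia replicate 2 was the lowest. No mm9 gene annotation was used here, so no gene is named at any region.

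The other leading regions were far weaker, and 4 of the 10 lay within window 21. These were at 101816053 to 101822338, 101167585 to 101172795, 101893450 to 101899220 and 102526788 to 102531334. At 101893450 to 101899220 the relative fold was 1.71 and 3.36 in PS_Ia, 3.91 and 3.42 in PS_Ca, 3.08 and 4.36 in FS_Ia, and 3.77 and 3.26 in FS_Ca. PS_Ia replicate 1 alone lay apart, below all the others, while PS_Ia replicate 2 was among them. At 102526788 to 102531334 the values were 1.18 and 1.77 in PS_Ia, 2.23 and 2.67 in PS_Ca, 2.42 and 2.71 in FS_Ia, and 1.62 and 2.37 in FS_Ca, again lowest in PS_Ia replicate 1. The regions at 101816053 and 101167585 were also lowest there, at 1.94 each, against 2.58 to 3.55 and 2.09 to 4.00 in the other 7.

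Toward the centromere the leading regions were at 9384012 to 9387060 and 11900952 to 11904007, in windows 2 and 3. The first had a relative fold of 1.53 and 2.41 in PS_Ia, 3.00 and 2.92 in PS_Ca, 2.33 and 3.43 in FS_Ia, and 2.08 and 2.84 in FS_Ca. Here too PS_Ia replicate 1 was the lowest of all. The second had 1.71 in PS_Ia replicate 1, close to the 1.77 of PS_Ia replicate 2, against 2.00 to 2.36 in the other 6. In the middle of the chromosome, leading regions at 66734160 to 66737196 (1.76 in PS_Ia replicate 1, against 1.14 to 2.11 in the other 7) and 72851813 to 72855127 (1.88, against 1.21 to 2.25) did not set that library apart. The last of the 10, at 64004718 to 64009727, was lowest in PS_Ia replicate 1, at 1.41 against 1.64 to 2.33.

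**Figure D2:**
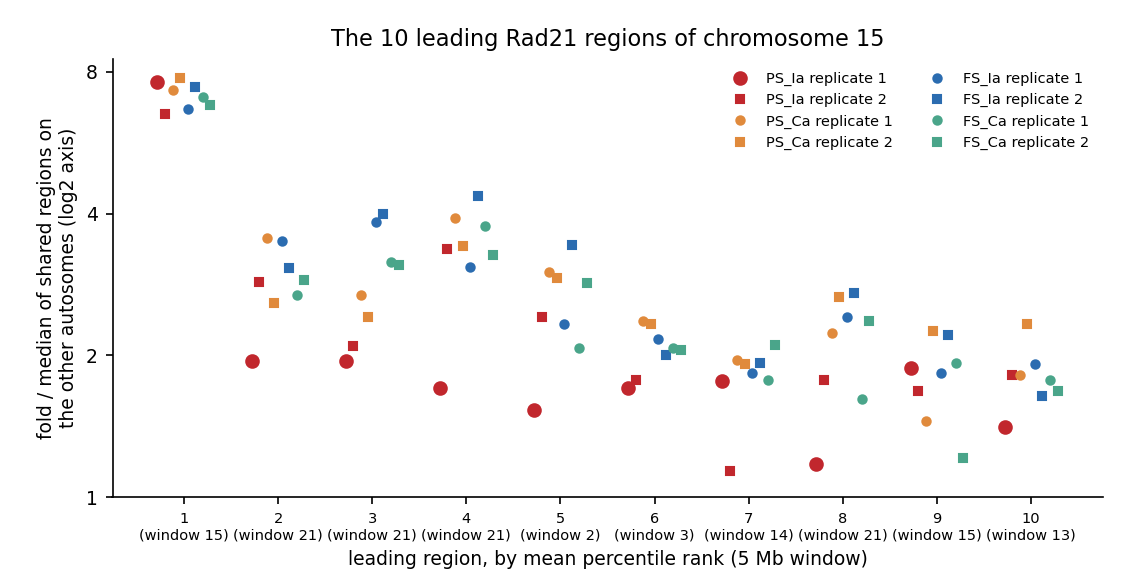
Relative fold (fold over the median of the list's shared regions on the other autosomes, log2 axis) of the 10 leading regions in each of the 8 libraries, with the 5 Mb window of each region. PS_Ia replicate 1 (large red circles) is the lowest library at the 4 regions of window 21 and at those of windows 2, 3 and 13, but not at the tallest region, where it reads 7.59.

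The widest merged regions were at 103002043 to 103010485 (8443 bp), 101066477 to 101073298 (6822 bp) and 66927754 to 66934284 (6531 bp), all found in 8 lists. Both of the first 2 lie in window 21. The widest had a relative fold of 1.00 and 2.32 in PS_Ia, 2.05 and 1.00 in PS_Ca, 1.67 and 2.07 in FS_Ia, and 1.54 and 1.53 in FS_Ca. The replicates of PS_Ia and of PS_Ca lay further apart than those of either FS genotype. In all, 233 of the 3136 regions were wider than 2 kb, a width to which merging across libraries contributes.

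Chromosome 15 took the smallest share of the list in PS_Ia replicate 1. Its 735 peaks there were 3.57% of the list (exact binomial 95% interval 3.32 to 3.83%), against 4.82% in PS_Ia replicate 2, 4.86 and 4.17% in PS_Ca, 4.65 and 5.004% in FS_Ia, and 4.66 and 4.62% in FS_Ca. The next lowest, PS_Ca replicate 2, had an interval of 3.81 to 4.56%, which overlaps that of PS_Ia replicate 1 slightly. These intervals cover counting error only. The share in PS_Ia replicate 1 was 0.766 times the median of the other 7. Of autosomal peaks alone, the share was 3.65% in PS_Ia replicate 1, against 4.54% in PS_Ca replicate 2. By genotype the share was 4.19 ± 0.881% in PS_Ia, 4.52 ± 0.487% in PS_Ca, 4.83 ± 0.248% in FS_Ia and 4.64 ± 0.0271% in FS_Ca (SD, n = 2 each), so the spread within PS_Ia exceeded the differences between genotypes.

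Among regions found in all 8 lists, those of chromosome 15 were relatively weak in PS_Ia replicate 1. Over these 304 shared regions, the median fold on chromosome 15 divided by that on the other autosomes was 0.912 in PS_Ia replicate 1, against 1.05 in PS_Ia replicate 2, 1.05 and 1.00 in PS_Ca, 1.00 and 1.11 in FS_Ia, and 1.08 and 1.03 in FS_Ca. The other 7 libraries had chromosome 15 at or above the level of the other autosomes, and PS_Ia replicate 1 had it below. PS_Ca replicate 1, which shares the prefix of its peak names with PS_Ia replicate 1, was at 1.05. Folds rise in steps of whole fragments, so several of these medians tie. Over all peaks of a list, shared or not, the low value was not seen: the median fold in PS_Ia replicate 1 was 6.78 on chromosome 15 and 6.78 on the other autosomes. By that measure only PS_Ca replicate 1 had a lower median on chromosome 15, at 5.64 against 6.21, and the 2 medians were equal in the other 7 lists.

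**Figure D3:**
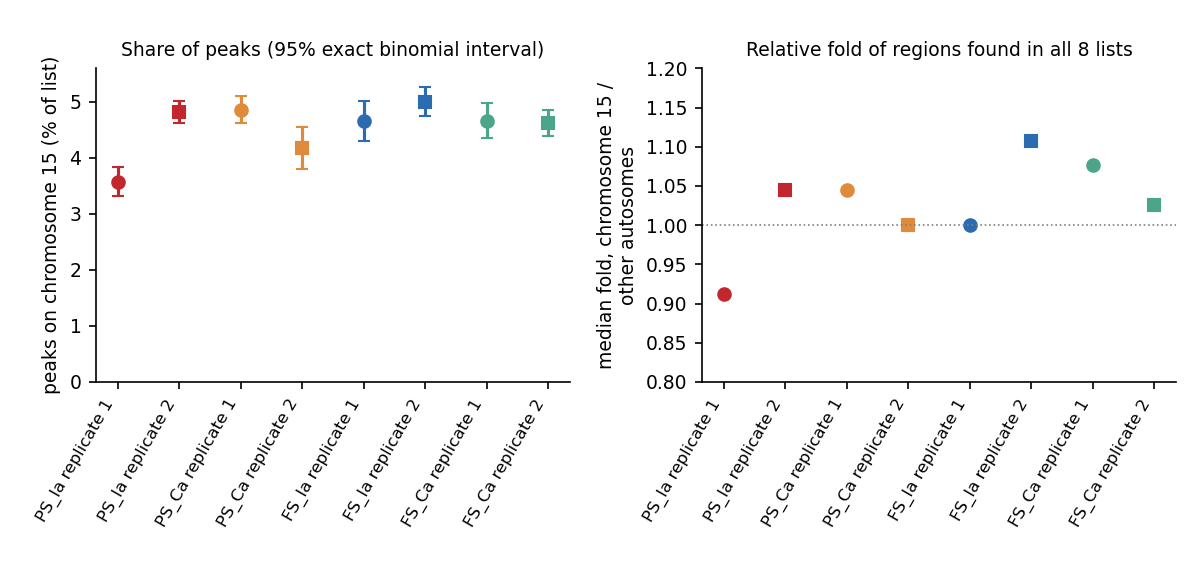
Left, peaks on chromosome 15 as a percent of each deposited list, with 95% exact binomial intervals; right, median fold of the 304 shared regions over that of shared regions on the other autosomes, each point 1 library (circle replicate 1, square replicate 2). PS_Ia replicate 1 is the lowest library on both, at 3.57% and 0.912.

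Neither feature of the engineered allele separated the libraries on this scale. Ia libraries had a relative fold of 1.02 ± 0.0823, against 1.04 ± 0.0324 for Ca (SD, n = 4 each). On the log2 scale Ia minus Ca was -0.033 (p = 0.743 by a two-sided exact permutation test, and 0.743 adjusted over 2 tests). PS libraries had 1.00 ± 0.0630, against 1.05 ± 0.0484 for FS (SD, n = 4 each), and PS minus FS was -0.074 (p = 0.286 by the same exact test, adjusted p = 0.571). On that scale the difference by orientation was within the SD of either side (0.12 in Ia, 0.045 in Ca). That by switch length was within the SD of PS (0.093) and slightly beyond that of FS (0.066). The design allows no p below 0.0286. Both also rest on PS_Ia replicate 1: without it they were 0.017 (exact permutation p = 0.857) and -0.0035 (exact permutation p = 1). Within the sets of libraries that share a prefix of peak names, Ia minus Ca was 0.0012 in the FS set, -0.20 between the first PS libraries and 0.064 between the second PS libraries, 1 library against 1 in each PS set. All FS libraries share 1 prefix that no PS library has, so prefix and switch length cannot be told apart.

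To see where PS_Ia replicate 1 departed, each shared region's log2 relative fold was set against the median of the other 7 libraries. This deviation averaged -0.24 over chromosome 15 in PS_Ia replicate 1, a ratio of 0.845, and 216 of 304 regions (71.1%) lay below 0. In the other 7 libraries it ran from -0.022 (PS_Ia replicate 2) to 0.057 (FS_Ia replicate 2). PS_Ia replicate 1 held the lowest relative fold of the 8, ties included, at 103 of 304 regions (33.9%), against 1013 of 6377 regions (15.9%) on the other autosomes. The deviation of chromosome 15 was the lowest of the 19 autosomes in that library, where the other 18 lay between -0.092 (chromosome 8) and 0.095 (chromosome 13). Values of this size were seen on other chromosomes in other libraries: chromosome 16 was at -0.34 and -0.30 in PS_Ca, and chromosome 12 at 0.25 in PS_Ia replicate 2.

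**Figure D4:**
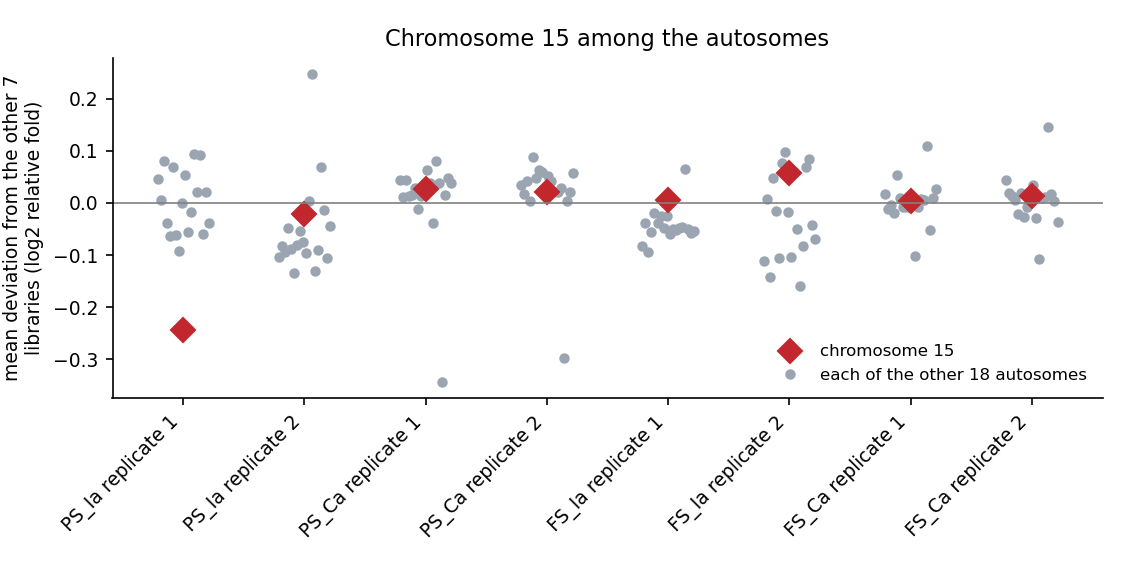
Mean deviation of shared regions from the median of the other 7 libraries (log2 relative fold), each grey point 1 of the other 18 autosomes and each red diamond chromosome 15, by library. Chromosome 15 lies below every other autosome in PS_Ia replicate 1, at -0.24, and within the spread of the autosomes in the other 7 libraries.

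The departure was not even along the chromosome. It was deepest at the distal end: in window 21 the deviation of PS_Ia replicate 1 was -0.71, a ratio of 0.612, with 30 of 31 shared regions below 0, whereas the other 7 libraries lay between -0.16 and 0.18. The relative fold of this window was 0.824 in PS_Ia replicate 1, against 1.41 in PS_Ia replicate 2, 1.5 and 1.25 in PS_Ca, 1.25 and 1.71 in FS_Ia, and 1.46 and 1.47 in FS_Ca. The end of the chromosome was thus its strongest window in the libraries as a whole (1.45 by the median library), and PS_Ia replicate 1 lacked that elevation. Peak numbers went the same way, with 35.9 peaks per 10000 autosomal peaks in PS_Ia replicate 1, against 84.2 in PS_Ia replicate 2, 72.5 and 52.1 in PS_Ca, 63.8 and 58.5 in FS_Ia, and 54.9 and 79.9 in FS_Ca.

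In steps of 1 Mb, the deviation of PS_Ia replicate 1 was -0.50 from 95000001 to 96000000 (5 shared regions), where FS_Ia replicate 2 was also low at -0.42, and -0.12 in the next Mb (7 regions), where FS_Ia replicate 2 was lower at -0.41. It was -0.071 from 97000001 to 98000000 (7 shared regions), where FS_Ca replicate 1 was lower at -0.42, and -0.29 in the next Mb (6 regions). It was -0.45 from 99000001 to 100000000 (12 regions) and -0.49 from 100000001 to 101000000 (6 regions). It was -0.69 from 101000001 to 102000000 (13 regions) and -0.98 from 102000001 to 103000000 (9 regions), where every region was below 0. The last step, past 103000000, held 3 regions at -0.38, where PS_Ca replicate 2 was lower at -0.50. In the step at -0.98 the other 7 libraries lay between -0.18 and 0.16.

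A second low stretch lay near the centromere. In windows 2 and 3 together (5000001 to 15000000), the deviation was -0.44 in PS_Ia replicate 1, a ratio of 0.736, with 25 of 28 regions below 0. PS_Ia replicate 2 was also low there, at -0.23, and the other 6 libraries lay between -0.046 (FS_Ia replicate 2) and 0.19 (PS_Ca replicate 1). Peaks per 10000 autosomal peaks numbered 24.9 in PS_Ia replicate 1, against 34.7 in PS_Ia replicate 2, 54.2 and 54.1 in PS_Ca, 40.1 and 36.3 in FS_Ia, and 50.7 and 43.8 in FS_Ca. Both PS_Ia libraries had the fewest, and FS_Ia replicate 2 was close to them.

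The middle of the chromosome was mixed. In window 12 (55000001 to 60000000, 24 shared regions) PS_Ia replicate 1 stood at 0.20, inside the range of the other 7, which ran from -0.24 to 0.25, and in window 19 (8 shared regions) it stood at 0.13. In windows 7, 8, 9, 12, 14 and 19 it lay inside the range of the others within 0.2 of 0. Windows 6 (-0.33) and 11 (-0.27) were low but inside that range. In windows 13 (-0.34), 15 (-0.29) and 18 (-0.31) it was the lowest of the 8 libraries. The 3 windows richest in shared regions were below 0, at -0.21 in window 17, -0.30 in window 20 and -0.16 in window 16. Of the 17 windows with at least 5 shared regions, PS_Ia replicate 1 was the lowest of the 8 libraries in 9 and below 0 in 13.

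**Figure D5:**
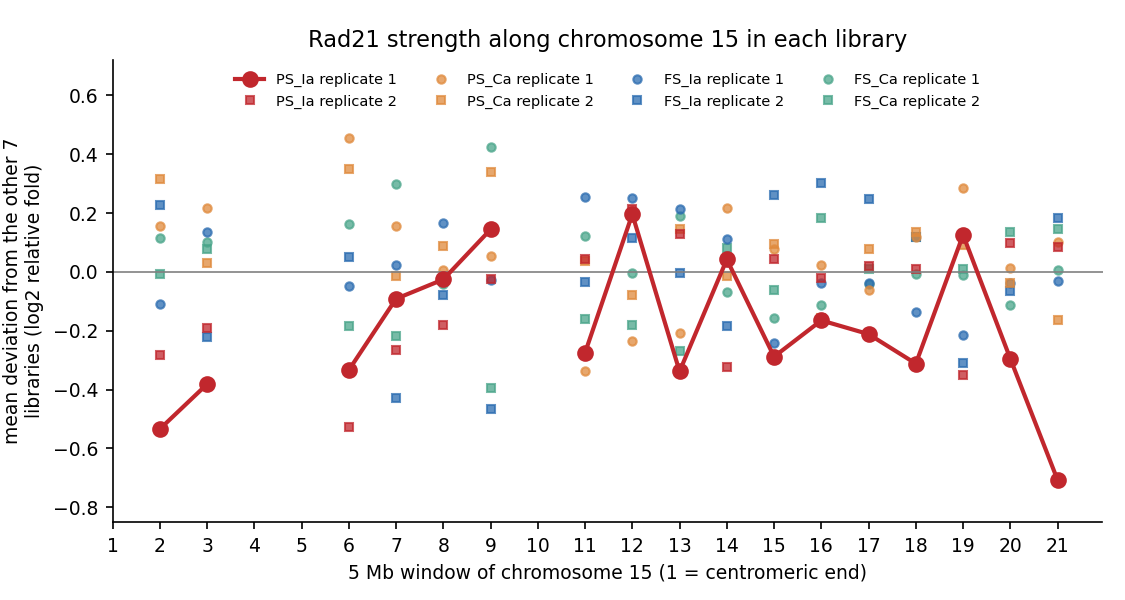
Mean deviation of shared regions from the median of the other 7 libraries (log2 relative fold) in each 5 Mb window with at least 5 shared regions, by library; the red line joins PS_Ia replicate 1 and breaks at windows with fewer. It stands at -0.53 in window 2, 0.20 in window 12 and -0.71 in window 21, and goes up and down between them.

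Set against the rest of the genome, window 21 had no equal in this library. The other autosomes had 264 windows of 5 Mb with at least 10 shared regions, and the lowest deviation of PS_Ia replicate 1 among them was -0.33, on chromosome 6. In other libraries such windows went as low as -0.58 (FS_Ia replicate 2, chromosome 2) and as high as 0.64 (PS_Ca replicate 2, chromosome 8). PS_Ia replicate 1 deviated somewhat with density elsewhere: windows of the other autosomes with more than 241.75 regions averaged -0.063 in that library, and the sparser ones 0.024. Other libraries did so too. The dense and sparser windows averaged 0.048 and -0.094 in PS_Ia replicate 2, 0.079 and -0.047 in FS_Ia replicate 2, and -0.062 and 0.019 in FS_Ca replicate 1. The gap was smaller in the remaining libraries. In PS_Ia replicate 1 the 4 such dense windows of chromosome 15 averaged -0.34 and its 8 sparser ones -0.21. Window 21 is among the 4. The rest, windows 16, 17 and 20, were at -0.16, -0.21 and -0.30, around the average of the sparser ones.

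Requiring a peak in all 8 lists hides regions that dropped below the threshold. Of the 329 regions found in the other 7 lists, 25 (7.60%, exact binomial 95% interval 4.98 to 11.01%) were missing from PS_Ia replicate 1, against 202 of 6579 (3.07%) on the other autosomes. The interval covers counting error only. The chromosome was picked for the few peaks of this library, so the difference was not tested. FS_Ia replicate 1, a shorter list, lacked nearly as large a share, 23 of 327 regions (7.03%), with 432 of 6809 (6.34%) on the other autosomes. PS_Ia replicate 2 lacked 2 of 306 (0.654%) and 14 of 6391 (0.219%). PS_Ca replicate 2, the shortest list, lacked 85 of 389 regions (21.9%) on chromosome 15 and 1642 of 8019 (20.5%) on the other autosomes, and FS_Ia replicate 2 lacked 9 of 313 (2.88%) and 347 of 6724 (5.16%). The 25 regions lay mostly in windows 2, 18 and 21, with 5 regions each.

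The best ranked of the missing regions was at 102007838 to 102010526, with a fold of 18.3 in PS_Ia replicate 2, 15.8 and 8.82 in PS_Ca, 10.8 and 8.99 in FS_Ia, and 12.9 and 9.82 in FS_Ca. Its summit was 10 to 33 fragments high in those lists, against a lowest called summit of 5 fragments in PS_Ia replicate 1. The others of the first 5 were at 88298910 to 88300574, 8578949 to 8580409, 101039938 to 101041542 and 88987115 to 88989849, with folds between 6.30 and 22.1 in the lists that held them.

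Among shared regions, the largest shortfall in PS_Ia replicate 1 was at 99868039 to 99870435, where the fold was 4.31 and 24.2 in PS_Ia, 15.2 and 12.6 in PS_Ca, 15.5 and 39.2 in FS_Ia, and 10.8 and 15.02 in FS_Ca. PS_Ia replicate 1 lay far below all the others, at a ratio of 0.247. Next came 101802737 to 101806960 (0.373), 102211070 to 102213907 (0.392), 88480469 to 88482257 and 74752874 to 74755124 (0.412 each). These regions were chosen for being low, and 1 fragment moves such summits visibly, the lowest being 6 to 10 fragments high.

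Other regions were relatively strong in the same library. At 94349928 to 94351880 the fold was 22.8 and 9.13 in PS_Ia, 17.5 and 6.93 in PS_Ca, 10.1 and 4.91 in FS_Ia, and 12.2 and 13.3 in FS_Ca, a ratio of 2.01. The region at 66506441 to 66510919 had a ratio of 1.76, that at 58804316 to 58807538 1.71, and those at 27245581 to 27247381 and 83463992 to 83465373 1.68 each. On the relative scale PS_Ia replicate 1 was the highest of the 8 libraries at each of these regions, which were chosen for being high there. FS_Ia replicate 2 was the lowest at the first 3.

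Few chromosome 15 regions followed a feature of the allele. In all 4 Ia lists and no Ca list there were 2 regions of 3136, where 0.0248% of all 64482 merged regions were of this kind. In all 4 Ca lists and no Ia list there was 1 region (0.0233% of all regions). In all 4 PS lists and no FS list there was 1 region (0.0403% of all), and in all 4 FS lists and no PS list also 1 (0.00775% of all). Each of these has p = 0.0286 by Fisher's exact test, the smallest possible, and adjusted p = 1 over all regions (Benjamini-Hochberg). The counts depend on single libraries: without FS_Ia replicate 1 there were 8 Ia-only regions, without PS_Ca replicate 2 there were 6 Ca-only and 9 PS-only regions, and without PS_Ia replicate 2 there were 4 FS-only regions. No difference from the background share was tested.

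These regions were weak. The Ia-only region at 74629901 to 74630632 had folds of 6.16 and 6.98 in PS_Ia and 4.64 and 7.36 in FS_Ia, and that at 31602613 to 31603354 had 4.93 and 4.30 in PS_Ia and 5.42 and 4.91 in FS_Ia. The Ca-only region at 68036211 to 68036993 had 5.64 and 5.67 in PS_Ca and 5.74 and 5.20 in FS_Ca. The PS-only region at 44241618 to 44242527 had 7.40 and 6.98 in PS_Ia and 6.77 and 5.67 in PS_Ca. The FS-only region at 75012606 to 75013298 had 5.42 and 4.91 in FS_Ia and 6.46 and 5.78 in FS_Ca. Their summits were 5 to 12 fragments high, and their mean percentile ranks lay between 44.98 and 76.4.

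Both lists of a genotype held 601 regions in PS_Ia, 430 in PS_Ca, 524 in FS_Ia and 612 in FS_Ca. PS_Ia and PS_Ca shared 361 of them, 60.1% of the PS_Ia and 84.0% of the PS_Ca regions. FS_Ia and FS_Ca shared 452, 86.3% of the FS_Ia and 73.9% of the FS_Ca regions. Across switch length, PS_Ia and FS_Ia shared 419 (69.7% and 80.0%), and PS_Ca and FS_Ca shared 380 (88.4% and 62.1%). The lower share has to be that of the genotype with more regions, as the same overlap is divided by both totals. Over all merged regions, both lists held 15604 regions in PS_Ia, 9668 in PS_Ca, 10845 in FS_Ia and 13049 in FS_Ca. There PS_Ia and PS_Ca shared 8425, FS_Ia and FS_Ca 9175, PS_Ia and FS_Ia 9396, and PS_Ca and FS_Ca 8219. Whether chromosome 15 differed from these was not tested.

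Regions in both libraries of a genotype and neither of its partner were few. PS_Ia against PS_Ca gave 35 regions (1.12% of the chromosome 15 regions, where the same rule held for 1.76% of all regions), and PS_Ca against PS_Ia gave 13 (0.415%, against 0.574% of all). FS_Ia against FS_Ca gave 13 (0.415%, against 0.479%), and FS_Ca against FS_Ia gave 40 (1.28%, against 1.78%). PS_Ia against FS_Ia gave 72 (2.30%, against 4.04%), FS_Ia against PS_Ia 9 (0.287%, against 0.281%), PS_Ca against FS_Ca 7 (0.223%, against 0.529%) and FS_Ca against PS_Ca 19 (0.606%, against 0.689%). The chromosome 15 shares were at or below the background in all of them but FS_Ia against PS_Ia, where they were alike. The comparisons with PS_Ia hold the library that chose the chromosome, and with 2 libraries against 2 no test was made.

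At the limits of the Myc and Pvt1 stretch, the last region kept before it was at 60990784 to 60991538, in 2 lists with folds of 4.30 and 6.21, and the first left out was at 61107646 to 61107898, in 1 list (5.72). The last left out was at 63573538 to 63573788 (1 list, 4.30), and the first kept after it was at 63601971 to 63602205 (1 list, 4.09). Around the Hoxc stretch, the regions kept were at 102641739 to 102641989 (4.83) and 102901149 to 102901560 (3.76), and those left out at 102790054 to 102790384 (4.30) and 102898402 to 102898652 (3.22), each in 1 list. All of these were weak.

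The deviation of PS_Ia replicate 1 moved with position along chromosome 15. On the other autosomes it moved weakly with the density of regions, as did that of other libraries. It also fell with the strength of a region in the other 7 libraries. From the weakest to the strongest of 3 groups of shared regions it was -0.031, -0.19 and -0.46 on chromosome 15. On the other autosomes it was 0.094, -0.0069 and -0.10. The fall was not particular to this library: every other library but FS_Ia replicate 2 (-0.022 to 0.026) also fell there. PS_Ca replicate 2 went from 0.20 to -0.11, FS_Ca replicate 1 from 0.11 to -0.11 and FS_Ia replicate 1 from 0.072 to -0.13. The groups were formed from the same other 7 libraries that the deviation is set against, which may by itself give a fall. The part of density in the low share was not tested.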

How the data were processed

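Rad21 ChIP-seq was analysed from 8 deposited narrowPeak lists of 10 columns, each called on its own library. Per the labels' protocols, formaldehyde-fixed chromatin was sonicated, precipitated, tagmented on beads with Tn5 and sequenced as 150 bp paired ends. Per the submitters' processing notes, MACS2 2.2.7.1 and Bowtie2 2.4.4 were used, with SAMtools 1.15.1, with deepTools 3.5.1 and on the build mm9. The sources used here do not give the peak threshold, read filters or any control. The deposited lists hold, per peak, an integer score, a fold (a ratio over the expected background), and −log10 p and −log10 q, all the authors' values. The background was read from the equal steps of the deposited fold, and summit heights recovered from it were whole within 0.01. Depth in reads is not given.

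Peaks were merged by 1 bp overlap, and a region's fold in a library is its highest peak there. Members, lists and tests were chosen with earlier results of these data known. The rule for named regions took the 10 best-ranked shared regions, all regions following a factor, 5 missing from and 5 lowest and 5 highest in PS_Ia replicate 1, and the 3 widest. Factors were compared by exact permutation of 4 against 4 libraries (70 assignments) and Fisher's exact test. Alternatives were a −log10 q of at least 5, lists of equal size, summits ± 100 bp, both windows kept in, other measures of strength, libraries left out, pairing by number and peak-name sets. Procedures were tested on simulated data (Python 3.11.15, numpy 2.4.6, pandas 2.3.3, scipy 1.17.1, matplotlib 3.10.9).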

Additional observations from a re-analysis of the deposited data

Results flagged for a closer look

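The share of peaks on chromosome 15 in FS_Ia replicate 2, 5.004%, stood apart from the other 3 FS libraries, which lay between 4.62 and 4.66%. The gap was 0.900 of the range of the 4, above the 95% limit of Dixon's test, which chance passes in about 1 of 20 groups. This limit was applied to the share, the relative fold and the mean deviation of shared regions. Each was searched within the Ia, Ca, PS and FS libraries, so this group was 1 of several.

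The mean deviation of shared regions differed in direction by switch length between the orientations. Both PS_Ia libraries lay below both FS_Ia libraries, a mean difference of -0.16 (log2 relative fold), and both PS_Ca libraries lay above both FS_Ca libraries. The values were -0.24 and -0.022 in PS_Ia, 0.027 and 0.022 in PS_Ca, 0.0061 and 0.057 in FS_Ia, and 0.0034 and 0.013 in FS_Ca. Without PS_Ia replicate 1, the library that chose the chromosome, PS_Ia minus FS_Ia was -0.054, a setting chosen after seeing the data. The difference was not tested.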

How the results depend on the processing

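The relative fold by orientation (-0.033) changed sign with all peaks of each list (0.034), without chromosomes 12 and 16 among the other autosomes (0.00011), without PS_Ia replicate 1 (0.017), within the FS set of peak names (0.0012) and between the second PS libraries (0.064). With 1 library left out at a time it lay between -0.070 and 0.017, and by switch length between -0.096 and -0.0035. No alternative brought either past the threshold. With a replicate block, pairing libraries of the same number, the differences were -0.033 (exact sign-flip permutation p = 0.75) and -0.074 (exact permutation p = 0.125, the smallest that 4 pairs allow). The numbers did not pair the libraries throughout: deviations of same-numbered libraries correlated between -0.23 and 0.40 over 6 genotype pairs. In the PS libraries, where the number goes with the prefix of peak names, PS_Ia and PS_Ca correlated at 0.074. The peaks at a −log10 q of at least 5 left 181 regions shared by all lists and 0 Ia-only, 0 Ca-only and 0 PS-only regions. Lists of equal size left 196 shared, 1 Ia-only, 0 PS-only and 2 FS-only regions, and summits ± 100 bp gave 2 Ca-only regions. Without a library the counts lay between 2 and 8 for Ia-only (8 without FS_Ia replicate 1, 5 without PS_Ia replicate 1), 1 and 6 for Ca-only (6 without PS_Ca replicate 2, 3 without PS_Ia replicate 2, FS_Ia replicate 1 or FS_Ca replicate 2, and 2 without FS_Ia replicate 2), 1 and 9 for PS-only (9 without PS_Ca replicate 2, 3 without PS_Ia replicate 1 or either FS_Ca library, 2 without PS_Ca replicate 1 or FS_Ia replicate 2) and 1 and 4 for FS-only (4 without PS_Ia replicate 2 or PS_Ca replicate 1, 3 without FS_Ia replicate 1, 2 without FS_Ca replicate 2), where fewer lists have to hold or lack a region. The shared regions numbered 304 to 389 without a library. PS_Ia replicate 1 had the lowest share of peaks under each of the 5 alternatives, 0.751 to 0.820 times the median of the other 7. Its deviations, tried under 5 settings chosen after seeing the data, were the lowest of the 8 libraries in each: -0.33 to -0.22 over the chromosome (-0.33 at a −log10 q of at least 5), -0.54 to -0.41 in windows 2 and 3, and -0.75 to -0.62 in window 21. The cause of these changes was not tested. Summits of 3 to 5 fragments limit what a missing peak can show.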
